A study of Saccharomyces cerevisiae with 8 samples.

Results

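The comparison is between yeast colonies on Day 4 and on Day 3 of growth on solid medium, with 2 libraries on each day, 4 of the 8 libraries of the series. All groups are Saccharomyces cerevisiae of the laboratory strain BY4741, of mating type a (MATa), carrying the his3Δ1, leu2Δ0, met15Δ0 and ura3Δ0 mutations, without any treatment. Cells were first grown to mid-log phase in liquid medium and either harvested (Log phase) or plated and harvested as colonies on Day 2, Day 3 or Day 4. The labels name no separation of colony layers, so a library pools all cells of the colonies, and a smaller number of cells of one kind cannot be told apart from less RNA per cell. The labels do not say that replicates were separate cultures, so every p-value below measures only the spread between these libraries. PAT-seq captures the 3′ ends of polyadenylated RNA together with a stretch of the poly(A) tail, and gives for each gene the number of reads, the number of reads that end in a tail and the mean length of that tail.

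A yeast colony that has used up the sugar below it lives on stored and respired carbon, stops dividing, makes fewer ribosomes and turns on stress and storage genes. Most messenger RNAs carry a poly(A) tail that is added after cleavage of the transcript and bound by the poly(A)-binding protein. Small nucleolar RNAs (snoRNAs), transfer RNAs and ribosomal RNAs normally end without one. In yeast nuclei, the TRAMP complex can add short tails to such RNAs, or to their unprocessed forms, and these tails mark them for trimming or decay by the exosome.

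Tailed reads on stable non-coding RNAs were among the values that changed late in the colony, and box C/D snoRNAs described below are shown first. The values used here do not give the base at which a tail begins. It may follow the 3′ end of the gene or that of an unprocessed form. The last 30 bases of each gene are given 5′ to 3′ from RefSeq on build R64, with the D box (CTGA), the conserved motif near the 3′ end of box C/D snoRNAs, in capitals.
SNR24, chrXIII:499984-500013, minus strand: ataccaattatcaccaagatctCTGAtgaa
SNR54, chrXIII:163535-163564, minus strand: acgatcttgtagagaacttttactCTGAat
SNR40, chrXIV:89277-89306, plus strand: gaagcattaagtatacccaaatttCTGAtc
SNR4, chrV:424854-424883, plus strand: cggtgctttaactattaataaCTGAggctg
SNR66, chrXIV:586146-586175, plus strand: atggacgagattgcttttttattaCTGAcc
CTGA on the gene's own strand stood in the last 15 bases of 41 of the 43 box C/D snoRNAs tested (95.3%) and of 1 of the 28 box H/ACA snoRNAs (3.57%). Among the 17 box C/D snoRNAs that rose on Day 4 it stood in 15 (88.2%), SNR24, SNR54, SNR40 and SNR4 among them, and SNR66, the only box C/D snoRNA called lower, carries it as well.

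The 4 libraries held 7908688 to 8435846 read counts and 3408914 to 3640183 tailed reads. Replicates differed by a median of 0.19 on the log2 scale on Day 3 and of 0.15 on Day 4. The deleted gene MET17 (also called MET15) had 0 counts in all 8 libraries, LEU2 had at most 10 and URA3 at most 8 counts in any library, while HIS3 and its neighbour DED1 form a single entry and could not be told apart. Of the markers of a cells, MFA1 stood at 1563 and 1534 counts per 1000000 reads (CPM) on Day 3 and at 1696 and 1538 CPM on Day 4, and STE2, the receptor for alpha-factor, at 261 and 278 CPM and then at 241 and 208 CPM. Of the markers of alpha cells, STE3 stayed between 5.33 and 10.3 CPM. MF(ALPHA)1, the alpha-factor pheromone gene, rose from 87.8 and 80.0 CPM to 281 and 230 CPM. SAG1 rose as well, and both genes are described in the last section.

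From Day 3 to Day 4, messenger RNA fell for 98 of 137 genes of cytosolic ribosomal proteins, for 48 of 73 of mitochondrial ribosomal proteins and for 9 of 11 histone genes. It rose for 8 of 22 genes of trehalose and glycogen, for 9 of 25 of peroxisomal fatty acid oxidation and for 9 of 29 of iron uptake. All of these counts were smaller when 1 library was left out, as given below. The median log2 fold change of the peroxisomal genes then lay between 0.25 and 0.31, and their share called higher was near that of all entries. In edgeR's quasi-likelihood test with Benjamini-Hochberg adjustment, 702 of 5930 entries tested were higher on Day 4 (11.8%) and 868 were lower (14.6%), 26.5% in all. The changes were moderate: 154 of the higher and 89 of the lower entries passed a 2-fold change, and the median log2 fold change of all entries was −0.02. When 1 of the 4 libraries was left out, 288 to 403 entries were called higher and 320 to 595 lower, fewest without Day 4 replicate 2. The assignment of reads was uncertain for 550 of the entries tested, 130 of those called higher and 29 of those called lower, because neighbouring genes form a single entry or because the deposited tables count the gene differently. Among the other called entries, tailed reads called 385 of 566 higher and 549 of 839 lower in the same direction, and had the opposite sign for 1 and 3.

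**Figure D1:**
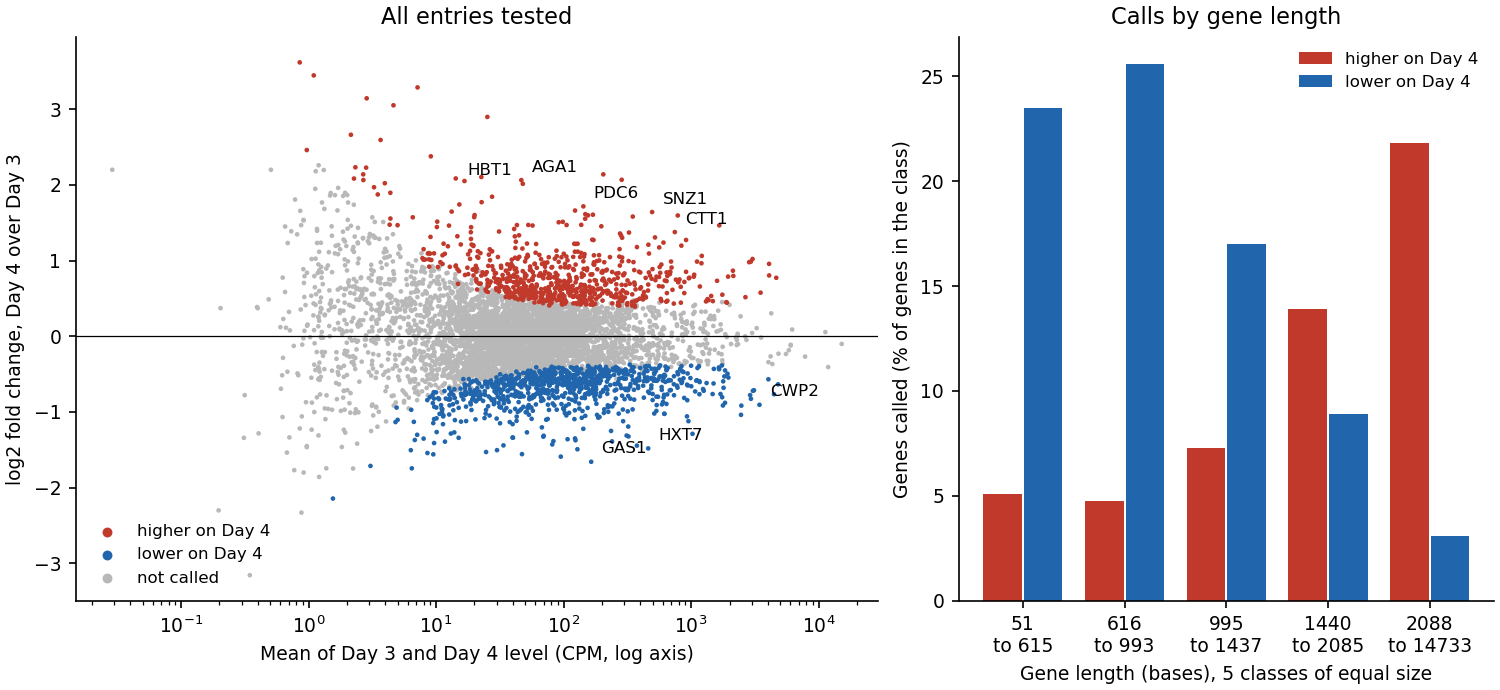
Left: log2 fold change of each of 5930 entries between Day 4 and Day 3 against its mean level in CPM (log axis), red where called higher (702) and blue where called lower (868) by edgeR at an adjusted p under 0.05. Right: percent of coding genes called in each direction in 5 length classes of equal size, where the share called higher runs from 5.08% in the shortest to 21.8% in the longest class and the share called lower from 23.5% to 3.08%.

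The largest rises among entries with at least 50 CPM on one of the days went to a few surface, vitamin and metabolic genes. YDL218W, an uncharacterised gene at chrIV:66493-67446, stood at 69.8 and 81.7 CPM on Day 3 and at 359 and 309 CPM on Day 4, a log2 fold change of 2.14 ± 0.17 (standard error, as throughout; adjusted p = 9.97e-08). AGA1, the cell surface anchor of a-agglutinin at chrXIV:703699-705876, stood at 17.1 and 18.9 CPM and then at 78.2 and 72.3 CPM (2.06 ± 0.20, adjusted p = 6.27e-07). For both genes the Day 4 libraries lay far above both Day 3 libraries, with no overlap. Genes named here and below were mostly picked by their call or size of change, so separate days add no support to those calls. The share of all entries whose days were separate was not computed.
HBT1, which encodes a protein of the mating projection, stood at 19.6 and 18.4 CPM and then at 73.6 and 79.9 CPM (2.01 ± 0.21). PDC6, a minor pyruvate decarboxylase, stood at 71.9 and 61.5 CPM and then at 208 and 230 CPM (1.72 ± 0.16). SNZ1, an enzyme of vitamin B6 synthesis known from stationary phase, stood at 261 and 219 CPM and then at 747 and 751 CPM (1.64 ± 0.15). Each of these genes was about 3-fold to 4-fold higher on Day 4, and none of them overlapped between days. XBP1, a repressor of transcription in stressed and starved cells, stood at 71.6 and 74.2 CPM and then at 199.8 and 246.5 CPM (1.61 ± 0.18). PHM7, a membrane protein of unknown role, rose by 1.60 ± 0.15 from 77.2 and 77.1 CPM to 226 and 241 CPM. MF(ALPHA)1, the alpha-factor pheromone gene described in the last section, rose by 1.61 ± 0.18. YJL047C-A and IRC13 also stood among the largest rises, but they overlap the snoRNA genes SNR60 and SNR17A, so their reads cannot be assigned with certainty.

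The largest falls were in genes of the cell surface, sugar uptake and the cell cycle. GAS1, a glucan-remodelling enzyme of the cell wall at chrXIII:887003-888682, stood at 177 and 323 CPM on Day 3 and at 85.5 and 72.9 CPM on Day 4 (−1.66 ± 0.20, adjusted p = 4.61e-06). Its Day 3 libraries differed widely from each other, yet both lay above both Day 4 libraries. ERG4, the last enzyme of ergosterol synthesis, fell from 109 and 177 CPM to 52.8 and 42.0 CPM (−1.59 ± 0.20), and SUR7, a membrane protein of eisosomes, from 197 and 182 CPM to 78.2 and 56.4 CPM (−1.49 ± 0.17). GND1, of the pentose phosphate pathway, fell from 493 and 606 CPM to 199.8 and 204 CPM (−1.44 ± 0.15). CLB1, a mitotic cyclin, fell from 114 and 123 CPM to 46.5 and 41.8 CPM (−1.43 ± 0.16). In each of these genes the 2 days were separate. FSH1, a serine hydrolase, fell by 1.39 ± 0.16 and ELO1, a fatty acid elongase, by 1.37 ± 0.18 on the log2 scale.

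Genes of glucose uptake moved both ways, and more genes of glycolysis fell than rose. HXT7, a high-affinity hexose transporter, stood at 668 and 689 CPM on Day 3 and at 249 and 237 CPM on Day 4 (−1.48 ± 0.15), and HXT4 fell from 57.5 and 83.2 CPM to 32.7 and 15.2 CPM (−1.56 ± 0.24). HXT7 and its neighbour HXT6, which fell as well (−1.04, adjusted p = 0.00215), have the same base at 1710 of 1713 positions of the gene and at 121 of the 200 positions after the stop codon. Reads within the genes could therefore belong to either, although neither is among the entries marked uncertain. The hexokinase gene HXK2 fell from 277 and 386 CPM to 157 and 122 CPM (−1.25 ± 0.17), SUC2, the invertase gene, from 248 and 270 CPM to 130 and 117 CPM (−1.07 ± 0.16), and the enolase gene ENO1 from 3105 and 3368 CPM to 1809 and 1621 CPM (−0.92 ± 0.13). Both days stood apart in each. Of the 21 genes of glycolysis and fermentation tested, 9 fell and 2 rose (median −0.32), namely PDC6 and PDC1, the main pyruvate decarboxylase (0.48 ± 0.14). Of 22 hexose transporters and sugar sensors tested, 7 fell and 5 rose (median 0.06), HXT5, HXT10, HXT14, MIG3 and RGT1 being those that rose. RGT1, a repressor of transporter genes, stood at 0.62 ± 0.15, and without 1 library 4 to 7 fell and 1 to 3 rose. HXT5, the transporter of slowly growing cells, rose from 1317 and 1170 CPM to 1732 and 1701 CPM (0.46 ± 0.14), and the transporter genes HXT10 and HXT14, both low, rose by 0.93 ± 0.26 and 1.51 ± 0.39. Without Day 3 replicate 1, Day 4 replicate 1 or Day 4 replicate 2 the rise of PDC1 was no longer called (0.31, 0.47 and 0.48), RGT1 lost its call without Day 3 replicate 2 and HXT5 without any library but Day 3 replicate 1.

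Ribosomal protein genes fell together. Of the 137 cytosolic ribosomal protein genes tested, 98 fell and 0 rose by edgeR (median log2 fold change −0.54, against −0.02 for all entries), and 131 had a negative value. The count of rises was 1 at an unadjusted p under 0.05 and 0 in DESeq2, while the fit of the 4 libraries alone called 1. RPL14A, of the large subunit, stood at 374 and 473 CPM and then at 206 and 221 CPM (−0.99 ± 0.15), and RPS13, of the small subunit, at 434 and 485 CPM and then at 251 and 219.9 CPM (−0.97 ± 0.14). RPL29 fell by 1.02 ± 0.15 and RPS8B by 0.89 ± 0.14 on the log2 scale. The falls were thus moderate, near 2-fold at the most, with no overlap between days in these 4 genes. The number of ribosomal protein genes that fell was 80 without Day 3 replicate 1, 64 without Day 3 replicate 2, 62 without Day 4 replicate 1 and 31 without Day 4 replicate 2, while the median stayed between −0.59 and −0.49. Of 118 genes of ribosome assembly, 13 fell and 3 rose (median −0.11), and both shares lay below those of all entries. Of 38 translation factors, 10 fell and 3 rose (median −0.25), but only 2 fell without Day 4 replicate 2.

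Genes of the mitochondrial ribosome fell as well. Of 73 genes of mitochondrial ribosomal proteins tested, 48 fell and 0 rose by edgeR (median −0.58), 0 rose at an unadjusted p under 0.05, 0 by DESeq2, and 24 to 38 fell when 1 library was left out. MNP1, a protein of the large subunit at chrVII:375087-375671, stood at 182 and 171 CPM and then at 72.2 and 66.3 CPM (−1.35 ± 0.16, adjusted p = 3.04e-06). MRPL50 fell from 188 and 143 CPM to 76.9 and 78.3 CPM (−1.09 ± 0.16), MRPL27 from 106 and 98.8 CPM to 45.76 and 50.03 CPM (−1.09 ± 0.16) and MRPL39 from 338 and 294 CPM to 179 and 154 CPM (−0.93 ± 0.15). In all 4 genes both Day 4 libraries lay below both Day 3 libraries.

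The messenger RNAs of mitochondrial ribosomal proteins are known targets of Puf3, a protein that binds 3′ untranslated regions and promotes deadenylation and decay. The sites below are the matches to the Puf3-type motif TGTANATA (in capitals) in the 4 genes just described, with 8 bases on each side, from the RefSeq genome on build R64.
MNP1, chrVII:375742-375765, plus strand, 79 bases after the stop codon: atatatcaTGTAAATAtgtttaac
MRPL50, chrXIV:669722-669745, minus strand, 37 bases after: tacaatctTGTATATAggcaacat
MRPL27, chrII:768701-768724, plus strand, 29 bases after: aatatgcgTGTAAATActagtttt
MRPL39, chrXIII:251210-251233, minus strand, 79 bases after: atttatccTGTAAATAagtaatgg
A match on the gene's own strand within 200 bases after the stop codon was present in 70 of 72 of these genes (97.2%), in 6 of 135 cytosolic ribosomal protein genes (4.44%) and in 818 of all 5374 coding genes tested with certain assignment (15.2%). On the other strand 744 of the 5374 genes (13.8%) had a match. Within the mitochondrial ribosomal proteins the motif was as frequent in the genes that fell (47 of 48) as in those not called (23 of 24). With the motif in 70 of the 72 genes these shares could hardly differ, so they do not show whether it goes with the fall. Among all genes with the motif 21.0% fell and the median log2 fold change was −0.13, and among genes without it 14.6% fell and the median was −0.03. The genes with the motif include the 70 of mitochondrial ribosomal proteins, 47 of which fell. Whether the difference holds without them was not tested. PUF3 itself rose, from 81.5 and 107 CPM on Day 3 to 202 and 188 CPM on Day 4 (1.05 ± 0.16, adjusted p = 6.85e-05), without overlap between days.

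PUF3 was one of 7 genes that rose in a list of 21 for poly(A) binding, deadenylation and RNA-binding proteins that act with the deadenylases, in which 1 fell (median 0.17). PUF3, PUF4, JSN1 and MPT5, 4 of the 7, encode proteins of the Puf family, which bind 3′ untranslated regions and not the tail, and the others were PAB1, CCR4 and CDC39. Reads of MPT5 could not be told apart from those of a neighbouring gene. When any 1 library was left out, 6 or 7 of the 21 rose. PAB1, the poly(A)-binding protein, stood at 703 and 727 CPM and then at 1244 and 1200 CPM (0.77 ± 0.14). CCR4, the main cytoplasmic deadenylase, stood at 31.7 and 27.1 CPM and then at 73.5 and 57.8 CPM (1.16 ± 0.21), and PUF4, an RNA-binding protein related to Puf3, at 81.1 and 73.4 CPM and then at 175 and 186 CPM (1.22 ± 0.24). The days did not overlap in any of them. CDC39, the scaffold of the CCR4-NOT complex, rose by 0.76 ± 0.15, JSN1 by 0.69 ± 0.16, and NOT5, another subunit of that complex, fell by 0.44 ± 0.15, a fall not called without any 1 of the 4 libraries. In tailed reads 4 of 20 members rose and 0 fell.

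Genes of the nuclear machinery that makes 3′ ends moved both ways. Of 26 genes of cleavage and polyadenylation, 5 rose (19.2%, against 11.8% of all entries) and 3 fell (11.5%, against 14.6%), with a median of 0.08, and without 1 library 2 to 4 rose and 0 to 2 fell. NPL3, an RNA-binding protein of nuclear export, stood at 182 and 195 CPM and then at 394 and 380 CPM (1.04 ± 0.14), with uncertain assignment of its reads. NRD1, NAB3 and SEN1, which together terminate transcription of snoRNAs and other non-coding RNAs, rose by 0.68 ± 0.18, 0.96 ± 0.23 and 0.53 ± 0.14, NAB3 with uncertain assignment, and each lost its call without at least 1 library. Of the 22 genes of the exosome and the TRAMP complex, 0 rose and 0 fell by edgeR or DESeq2, while 2 were higher and 3 lower at an unadjusted p under 0.05 and the fit of the 4 libraries alone called 1 in each direction. The TRAMP poly(A) polymerase gene PAP2 (also called TRF4) stood at 21.9 and 21.1 CPM and then at 15.5 and 18.5 CPM (−0.34 ± 0.22, adjusted p = 0.26). AIR2, a zinc-knuckle subunit, stood at 189 and 157 CPM and then at 136 and 122 CPM (−0.43 ± 0.16, adjusted p = 0.0562). The helicase gene MTR4 (0.03 ± 0.18) and the nuclear exosome nuclease gene RRP6 (−0.03 ± 0.19) stayed near 0.

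Histone genes fell, while other genes of the cell cycle moved both ways. Of 11 histone genes 9 fell and 0 rose by edgeR (median −0.83), 0 rose at an unadjusted p under 0.05, 0 by DESeq2, and 5 to 7 fell when 1 library was left out. HHF2, histone H4, stood at 341 and 353 CPM on Day 3 and at 135 and 130 CPM on Day 4 (−1.39 ± 0.14), and HTA2, histone H2A, at 435 and 455 CPM and then at 186 and 172 CPM (−1.31 ± 0.15). Replicates of each day lay close together, and the days were well apart. Of 30 mitosis genes 6 fell and 2 rose, with DBF2, a kinase of mitotic exit, at −1.12 ± 0.19 and CDC5, the polo kinase, at −0.78 ± 0.18, and 3 to 5 fell when 1 library was left out. The transcription factor gene FKH2 rose (0.57 ± 0.15). Of 52 genes of DNA replication and the step from G1 to S phase 8 fell (15.4%, against 14.6% of all entries) and 2 rose (median −0.05), and 2 to 5 fell when 1 library was left out. CLN1, a G1 cyclin, fell by 0.80 ± 0.15 on the log2 scale, while RNR3, a subunit of ribonucleotide reductase, and POL2, a DNA polymerase, rose by 1.13 ± 0.27 and 0.60 ± 0.20.

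**Figure D2:**
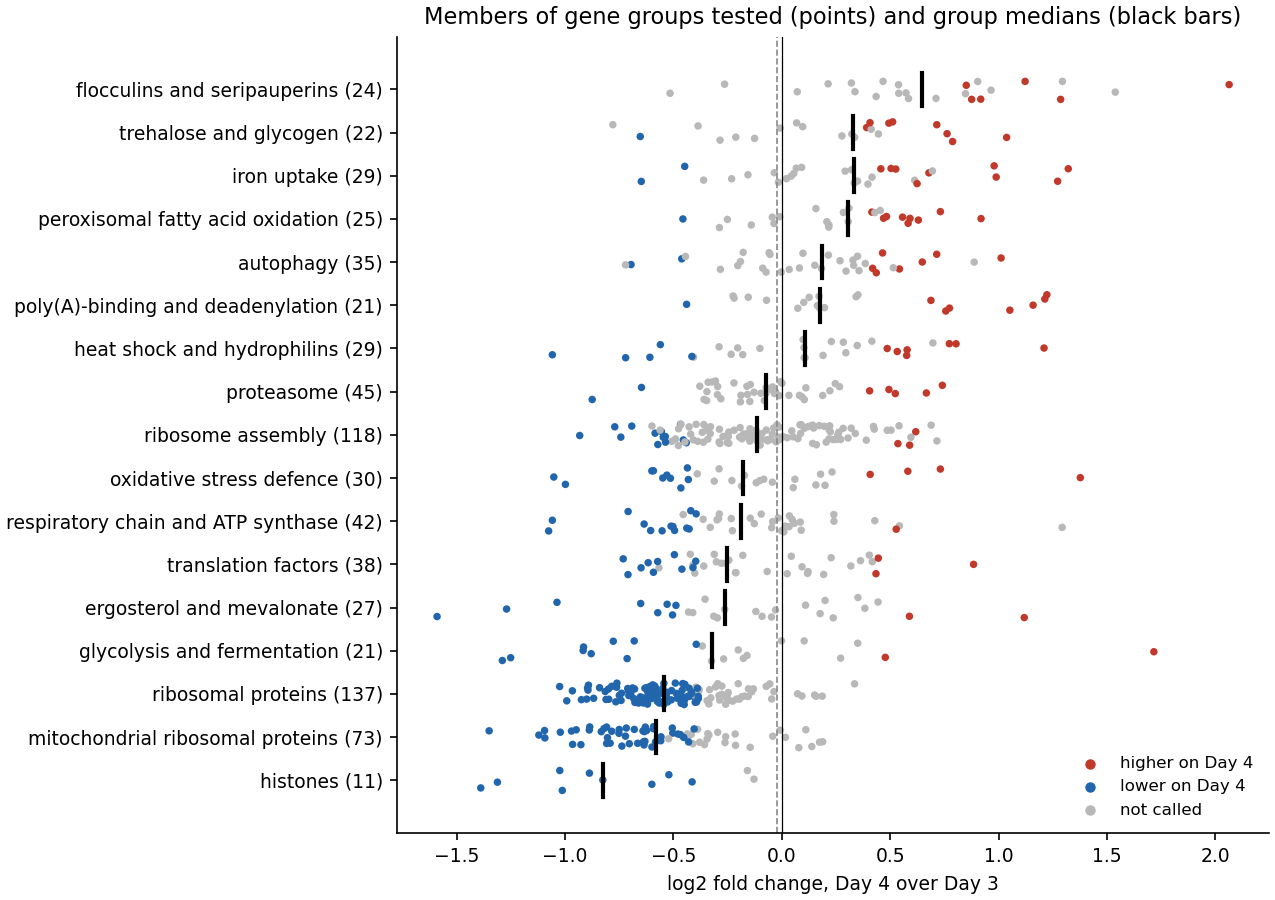
Log2 fold change between Day 4 and Day 3 of every tested member of 17 gene groups (points, red where called higher, blue where called lower, grey where not called), with the number of members tested in brackets, the group median as a black bar and the median of all entries (−0.02) as a dashed line. The medians run from −0.83 in histones, −0.58 in mitochondrial and −0.54 in cytosolic ribosomal proteins to 0.33 in trehalose and glycogen genes and 0.65 in flocculins and seripauperins.

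Storage and starvation genes rose in part. Of 22 genes of trehalose and glycogen, 8 rose and 1 fell (median 0.33), and 2 to 4 rose when 1 library was left out. TSL1, a subunit of trehalose synthase, stood at 432 and 352 CPM and then at 667 and 687 CPM (0.79 ± 0.15), and UGP1, which makes UDP-glucose, fell from 174 and 194 CPM to 119 and 115 CPM (−0.65 ± 0.15), a fall not called without Day 4 replicate 2. Of 25 genes of peroxisomal fatty acid oxidation 9 rose and 1 fell (median 0.31), and 1 or 2 rose when 1 library was left out. OAF1, the oleate-responsive activator of these genes, rose from 53.3 and 45.6 CPM to 93.4 and 93.6 CPM (0.92 ± 0.19) and kept its call without any 1 library. The acyl-CoA oxidase gene POX1 stood at 128 and 125 CPM and then at 187 and 194.5 CPM (0.59 ± 0.17), a rise not called once any 1 library was left out. Of 29 genes of gluconeogenesis and the glyoxylate cycle 8 rose and 3 fell (median 0.03), with the carnitine acetyltransferase gene YAT1 up from 1404 and 1610 CPM to 2679 and 2816 CPM (0.87 ± 0.14) and the isocitrate dehydrogenase gene IDP2 down from 588 and 604 CPM to 381 and 379.5 CPM (−0.65 ± 0.16). IDP2 lost its call without either Day 4 library, and 2 to 4 genes of the group rose when 1 library was left out.

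Stress and iron genes moved both ways. Of 30 genes of oxidative stress defence 10 fell and 4 rose (median −0.18), and without 1 library 3 to 8 fell and 1 or 2 rose. CTT1, the cytosolic catalase at chrVII:654634-656322, rose from 423 and 406 CPM to 1026 and 1126 CPM (1.38 ± 0.16, adjusted p = 2.51e-06), whereas the thioredoxin gene TRX1 fell from 188 and 211 CPM to 97.9 and 94.6 CPM (−1.05 ± 0.15) and the thioredoxin reductase gene TRR1 from 298 and 299 CPM to 151 and 148 CPM (adjusted p = 4.71e-05). Of 29 heat shock and hydrophilin genes 7 rose (24.1%, against 11.8% of all entries) and 5 fell (17.2%, near the 14.6% of all entries), with a median of 0.11. Fewer were called in each direction without 1 library, and the median lay between 0.05 and 0.19. The inducible SSA4 rose from 307 and 251 CPM to 598 and 693 CPM (1.21 ± 0.15), and SSA1, a major constitutive Hsp70, fell from 3367 and 4225 CPM to 2275 and 2334 CPM (−0.72 ± 0.14). Of 42 markers of stationary phase 10 rose and 6 fell (median 0.04), with GIS1, a regulator of nutrient-limited gene expression, at 1.18 ± 0.15 and RGI1, of respiratory growth, at −1.32 ± 0.26, and 5 to 7 rose when 1 library was left out. Of 29 iron uptake genes 9 rose and 2 fell (median 0.33), and 3 or 4 rose when 1 library was left out. FIT3, a cell wall protein that retains siderophore iron, rose from 492 and 577 CPM to 1346 and 1237 CPM (1.27 ± 0.20).

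More membrane lipid and respiratory genes fell than rose. Of 27 genes of ergosterol and mevalonate synthesis 8 fell and 2 rose (median −0.26), and without 1 library 3 to 7 fell. ERG26 and ERG2, enzymes of the later steps, fell by 1.27 ± 0.17 and 1.04 ± 0.16 on the log2 scale, while ERG25, the methyl sterol oxidase, rose from 78.2 and 84.6 CPM to 184 and 169 CPM (1.12 ± 0.16). In tailed reads the value of ERG25 was 0.28 and was not called (adjusted p = 0.232). Of 42 genes of respiratory complexes and ATP synthase 13 fell and 1 rose (median −0.19), and 3 to 9 fell when 1 library was left out. COX5B, a subunit of cytochrome c oxidase, fell from 248 and 259 CPM to 118 and 123 CPM (−1.08 ± 0.16). The subunits of succinate dehydrogenase moved apart: SDH1, the flavoprotein, rose from 431 and 354.5 CPM to 761 and 719 CPM (0.92 ± 0.15), and SDH3, a membrane anchor, fell from 2279 and 1997 CPM to 1292 and 1229 CPM (−0.76 ± 0.15).

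Gene length moved with the direction of change. Among 5374 coding genes with certain assignment, split by length into 5 classes of equal size, the shortest class (median 399 bases) had a median log2 fold change of −0.15 and the longest (median 2805 bases) one of 0.19, and the classes between lay at −0.22, −0.11 and 0.04. In tailed reads the classes lay at −0.20, −0.21, −0.11, 0.06 and 0.21. The share of genes called lower was 23.5% in the shortest and 3.08% in the longest class, and the share called higher was 5.08% and 21.8%. The gene lists were also sorted by whether more members fell or more rose, by any margin and whatever the size of the changes. Most lists of either direction had a median length above that of all genes, so this sort cannot show whether length goes with direction. Of 23 lists with more falls than rises, 8 had a median length below that of all these genes (1194 bases) and 15 one above it, and of 17 lists with more rises than falls, 5 lay below and 12 above. The 3 lists with the largest shares of falls were short, with 399 bases for histones, 771 for cytosolic and 706 for mitochondrial ribosomal proteins. Respiratory chain and ATP synthase (390 bases), mitochondrial protein import (669) and oxidative stress defence (702) were also short and had more falls than rises. Mitosis genes (2130 bases) fell more often than they rose, and flocculins and seripauperins (375 bases) rose more often. The part of gene length in these group values was not tested.

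Reads with a tail on non-coding RNA made up a larger share of the library on Day 4. All non-coding entries together took 1.43% and 1.44% of tailed reads on Day 3 and 2.57% and 2.65% on Day 4, and 0.531% to 0.820% in the 4 Log phase and Day 2 libraries. The difference of 1.17 percentage points between Day 4 and Day 3 far exceeded that between replicates, but an exact two-sided permutation test of 2 against 2 libraries cannot go below p = 0.333, which it gave here. In edgeR's test of 6103 entries with tailed reads, 610 rose (10%) and 679 fell (11.1%), 21.1% in all. Among the 301 non-coding entries tested, 49 rose and 2 fell, with a median log2 fold change of 0.19 against −0.01 for all entries.

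Ribosomal RNA made up most of the non-coding tailed reads, with 0.764% and 0.813% on Day 3 and 1.55% and 1.56% on Day 4. Of its 10 entries, which share reads between repeat copies, 9 rose and 0 fell by edgeR, as by DESeq2 and at an unadjusted p under 0.05, and 6 to 9 rose when 1 library was left out. The entry of the long precursor unit (RDN18-1/RDN25-1/RDN37-1/RDN58-1) rose from 3490 and 3740 tailed CPM to 6980 and 6810 tailed CPM (0.93 ± 0.16). The 5S genes fell into 2 sequence types that differ at the 3′ end, given here on chromosome XII of build R64, plus strand, with the differing last bases in capitals.
RDN5-1, chrXII:459767-459796: accatacgcgaaactcaggtgctgcaATCT
RDN5-6, chrXII:489440-489469: accatacgcgaaactcaggtgctgcaATCT
RDN5-2, chrXII:468902-468931: tgaccatacgcgaaactcaggtgctgcaGT
RDN5-1 rose from 160 and 169 tailed CPM to 442 and 456 tailed CPM (1.45 ± 0.16) and RDN5-6, identical over its 121 bases, from 63.4 and 60.9 to 162 and 167 tailed CPM (1.40 ± 0.19). The 4 genes of the type of RDN5-2, with 119 bases each, rose by 0.78 to 0.86 on the log2 scale, RDN5-2 from 87.6 and 89.4 to 150 and 169 tailed CPM (0.85 ± 0.19). The difference between the types was not tested.

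Of 43 box C/D snoRNAs 17 rose and 1 fell (median 0.50), and 10 to 12 rose when 1 library was left out. Their share of tailed reads went from 0.263% and 0.249% to 0.478% and 0.516%. Most, but not all, box C/D snoRNAs guide methylation of ribosomal RNA. SNR24 stood at 209 and 226 tailed CPM on Day 3 and at 789 and 871 on Day 4 (1.93 ± 0.17, adjusted p = 3.79e-07). SNR40 stood at 319 and 294 and then at 835 and 1010 tailed CPM (1.59 ± 0.17), and SNR4 at 315 and 256 and then at 712 and 714 tailed CPM (1.32 ± 0.16). SNR54 started low, at 12.7 and 9.93 tailed CPM, and reached 53.5 and 58.8 (2.31 ± 0.29). In these 4 snoRNAs every Day 4 library lay above both Day 3 libraries, and each call held without any 1 library. SNR66 moved the other way, from 83.5 and 80.5 to 58.7 and 41.6 tailed CPM (−0.71 ± 0.23, adjusted p = 0.027), but was not called without Day 3 replicate 1 (−0.69), without Day 3 replicate 2 (−0.72) or without Day 4 replicate 2 (−0.48).

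Of 28 box H/ACA snoRNAs, which guide pseudouridylation, 10 rose and 1 fell (median 0.43), and their share went from 0.143% and 0.134% to 0.206% and 0.221%. When 1 library was left out, 6 to 8 rose. SNR5 stood at 112 and 85.4 tailed CPM and then at 222 and 241 (1.23 ± 0.18), and SNR82 at 106 and 107 and then at 194 and 226 tailed CPM (0.98 ± 0.17). SNR33 fell from 87.6 and 86.2 to 47.2 and 49.9 tailed CPM (−0.84 ± 0.19, adjusted p = 0.00267), without overlap and in every setting with 1 library left out.

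Of the 5 spliceosomal RNA entries 4 rose (median 1.13) and 2 or 3 did so when 1 library was left out. LSR1, the U2 RNA, stood at 215 and 185 tailed CPM and then at 464 and 440 (1.18 ± 0.17), and SNR7, the U5 RNA, at 19.9 and 18.5 and then at 54.7 and 56.0 (1.53 ± 0.31). SNR19, the U1 RNA, missed the threshold (0.56 ± 0.20, adjusted p = 0.054). Other stable RNAs differed among themselves. NME1, the RNA of RNase MRP, rose (1.58, adjusted p = 0.00385), a call lost without Day 3 replicate 2 (1.45) or Day 4 replicate 1 (1.39), as did SNR17B, a copy of the U3 snoRNA (1.36, adjusted p = 0.00158), whose call was lost without Day 4 replicate 2 (1.09). The RNAs of RNase P (RPR1, −0.29), of the signal recognition particle (SCR1, −0.09) and of telomerase (TLC1, 0.53) were not called.

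**Figure D3:**
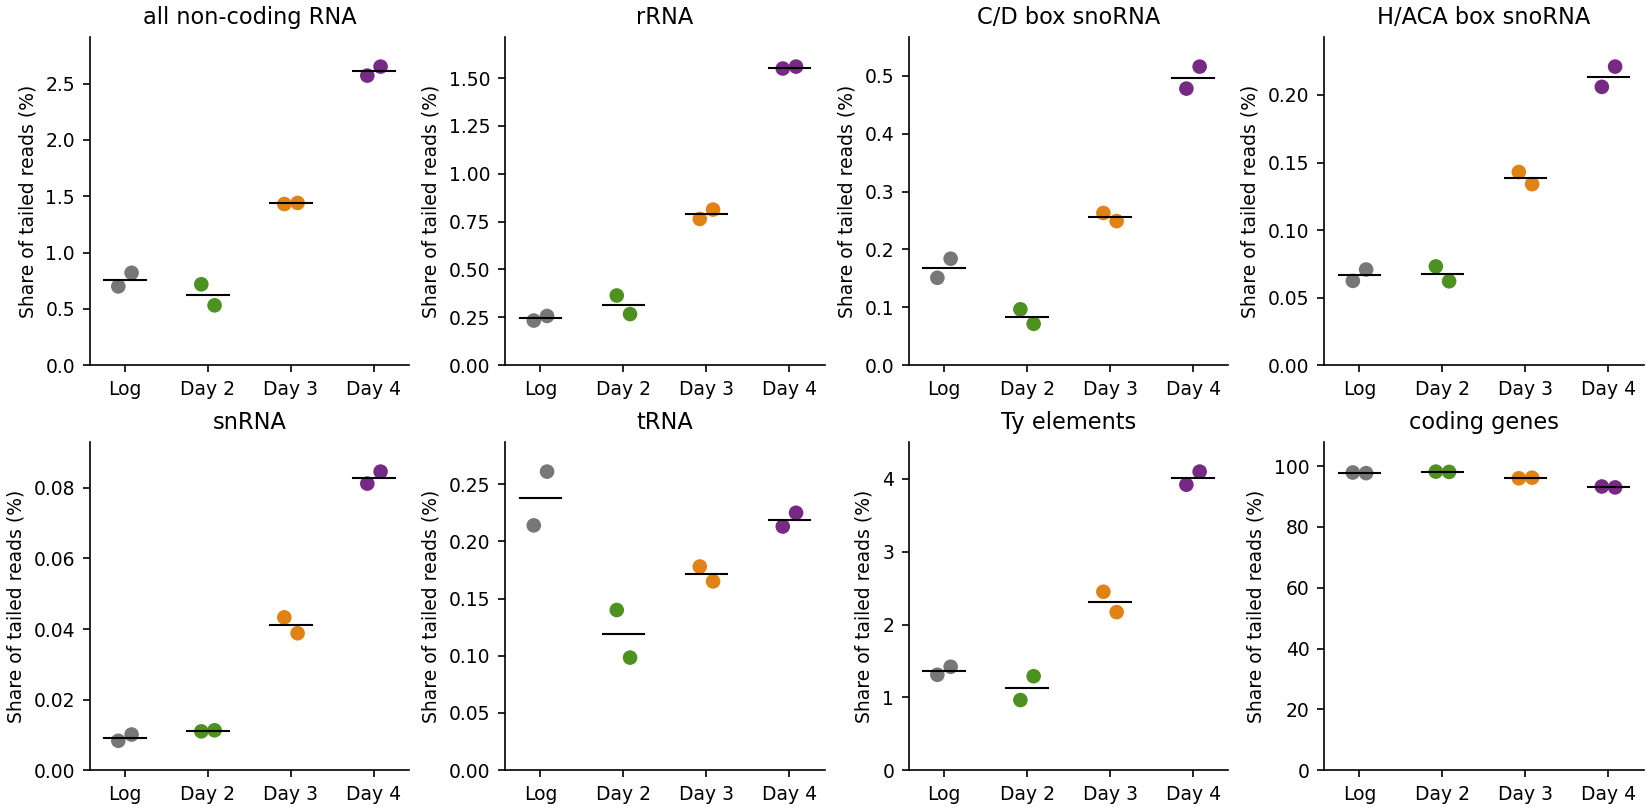
Share of all tailed reads (%) on each class of entry in the 8 libraries, as points for the libraries and a line for the mean of the 2 of each group, each panel with its own axis from 0. The share of all non-coding RNA stood at 1.43% and 1.44% on Day 3 and at 2.57% and 2.65% on Day 4, and that of coding genes at 96.0% and 96.2% and then at 93.3% and 93.0%.

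Few transfer RNAs were called, and 4 of those that rose were serine tRNAs. Of 208 tRNA entries tested 7 rose and 0 fell by edgeR (median 0.02), with 0 falls by DESeq2 and 15 higher and 7 lower at an unadjusted p under 0.05. The 4 serine tRNA genes SUP16, SUP17, SUP19 (all with the anticodon UGA) and SUP61 (anticodon CGA) rose and were called without any 1 library, whereas tI(AAU)B, tE(UUC)L and tE(UUC)B lost their calls without any 1 of the 4. The last 30 bases of these genes are shown with those of a serine tRNA with the anticodon AGA, whose differences from SUP16 are in capitals (RefSeq, build R64).
SUP16, chrXVI:689617-689646, plus strand: cccgcgctggttcaaatcctgctggtgtcg
SUP17, chrIX:248902-248931, plus strand: cccgcgctggttcaaatcctgctggtgtcg
SUP19, chrV:288443-288472, minus strand: cccgcgctggttcaaatcctgctggtgtcg
SUP61, chrIII:228013-228042, plus strand: cccgcgctggttcaaatcctgctggtgtcg
tS(AGA)D2, chrIV:980974-981003, minus strand: cccgcgcAggttcGaGtcctgcAgTtgtcg
SUP16, SUP17 and SUP19 are identical over all 82 bases and all 4 genes share their last 30, so their reads cannot be told apart with certainty. SUP16 stood at 38.6 and 61.7 tailed CPM on Day 3 and at 141 and 161 on Day 4 (1.59 ± 0.22), and SUP19 at 27.9 and 35.2 and then at 102 and 112 (1.76 ± 0.24), while SUP17 and SUP61 rose by 1.68 ± 0.26 and 1.79 ± 0.27. Summed over the UGA family, tailed reads went from 91.6 and 135 to 345 and 382 per 1000000 tailed reads. The AGA family stood at 36.5 and 30.2 and then at 39.6 and 40.7 per 1000000, with 0 of 7 entries called and tS(AGA)D2 at 0.61 (adjusted p = 0.205). The glutamate tRNA family with the anticodon UUC went from 52.8 and 72.8 to 105 and 130 per 1000000, with 2 of 14 entries called and a median of 1.12. The difference between the families was not tested.

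A set of 8 snoRNAs lies in introns of protein-coding genes on the same strand, where the snoRNA and the spliced messenger come from one transcript. Of these snoRNAs 6 rose (median 1.49), against 21 of the other 63 box snoRNAs (median 0.32), and 5 or 6 rose when 1 library was left out. Of the 8 host messengers 4 fell in tailed reads and 0 rose by edgeR (median −0.48), 0 by DESeq2 and 1 at an unadjusted p under 0.05, and 1 to 4 fell when 1 library was left out. In tailed reads 11.1% of all entries fell, and so did 81 of 137 cytosolic ribosomal protein genes (median −0.50). The hosts RPL7A, RPL7B and RPS22B are themselves ribosomal protein genes, so the falls of RPL7A and RPS22B cannot be told apart from those of that class. The other hosts that fell were ASC1 and IMD4, and RPL7B was not called (−0.12). SNR24 lies in the intron of ASC1 (intron chrXIII:499879-500151, snoRNA chrXIII:499984-500072), which encodes a ribosome-bound scaffold protein. While SNR24 rose by 1.93, tailed reads of ASC1 went from 257 and 351 CPM to 207 and 178 CPM (−0.66 ± 0.17, adjusted p = 0.0072). The table of all reads gives ASC1 a rise of 1.47 instead. That table assigns 96030 reads over the 8 libraries to ASC1, and the gene table lists 42951 for ASC1 and 53456 for SNR24 apart. SNR54 rose by 2.31 and its host IMD4, of guanine nucleotide synthesis, fell by 0.75 (adjusted p = 0.00303). SNR44 rose by 1.39 and its host RPS22B fell by 1.03 (adjusted p = 8.27e-05). SNR39 rose by 1.59 and RPL7A fell by 0.54 (adjusted p = 0.0111). For SNR18 in EFB1 the snoRNA rose by 1.13 and the host stood at −0.08, and for SNR191 in NOG2 the snoRNA rose by 2.46 from 4.03 and 1.61 to 16.6 and 14.4 tailed CPM, a call lost without Day 3 replicate 2 (1.95), while the host stood at 0.44. SNR38 in TEF4 (0.07) and SNR59 in RPL7B (0.50) were not called.

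**Figure D4:**
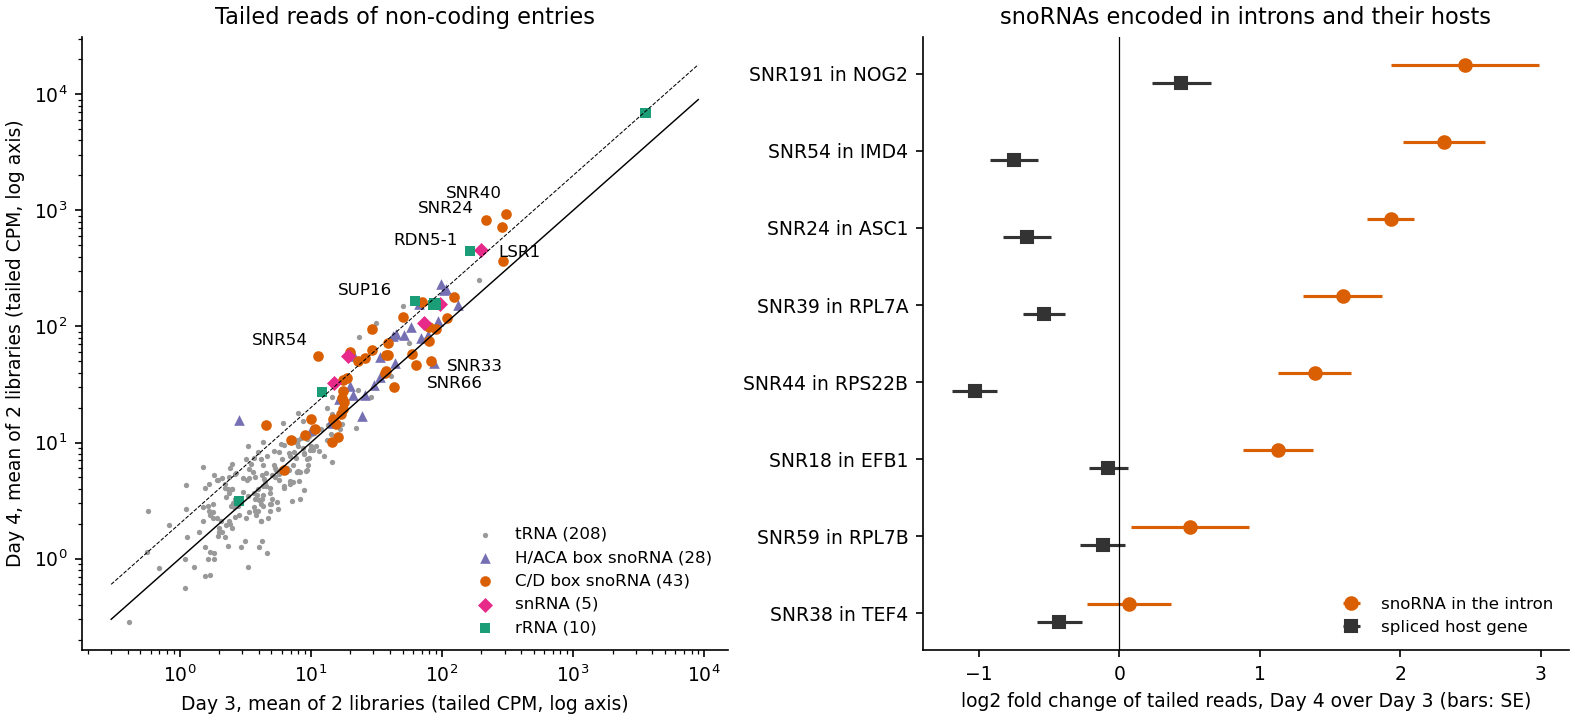
Left: mean tailed CPM of each non-coding entry on Day 3 and Day 4 (log axes), by class with the number of entries in brackets, with a solid line at equality and a dashed line at a 2-fold rise. Right: log2 fold change of tailed reads with its standard error for 8 snoRNAs in introns (circles) and for their host genes (squares), where SNR24 lies at 1.93 and ASC1 at −0.66.

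The median poly(A) tail was nearly as long on Day 4 as on Day 3, and no single gene had a called change. Over 5388 genes, each with no fewer than 10 tailed reads per library, limma called 0 genes with a longer or shorter tail (smallest adjusted p = 0.448), and 439 genes (8.15%) had an unadjusted p under 0.05, of which 171 had a longer and 268 a shorter tail on Day 4. The 10 other settings run called 0 as well, with 271 to 491 genes at an unadjusted p under 0.05. The median tail per library was 18.24 and 18.26 nt on Day 3 and 18.11 and 17.89 nt on Day 4, a difference of −0.251 nt (exact two-sided permutation test, p = 0.333, the smallest possible). In Log phase the median was 19.69 and 19.11 nt and on Day 2 it was 20.35 and 20.49 nt. For single genes, the difference between Day 4 and Day 3 lay between −2.74 and 2.20 nt in the middle 90% of genes, with a median standard error of 1.01 nt. In data simulated for this comparison over 5388 genes, limma called 5% of changes of 2 nt and 71% of changes of 4 nt, so most changes of 2 nt and some of 4 nt would have been missed with these libraries.

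Genes that changed in expression did not stand apart in their change of tail length. Over 4795 genes with certain assignment, log2 fold change and tail difference had a Spearman rho of 0.00434 and a Pearson r of −0.01 across genes, which are not independent replicates. The median tail difference was −0.112 nt in the 518 genes called higher, −0.154 nt in the 827 called lower and −0.205 nt in the 3450 not called. Genes that rose had shorter tails than genes that fell on both days, with medians of 17.34 and 17.54 nt on Day 3 against 19.18 and 19.15 nt, and of 17.45 and 17.14 nt on Day 4 against 19.11 and 18.75 nt. The smallest p belonged to TRP3, an enzyme of tryptophan synthesis, at 21.3 and 22.7 nt on Day 3 and at 30.5 and 31.8 nt on Day 4, with as few as 13 tailed reads in a library. APA1, a diadenosine tetraphosphate phosphorylase, stood at 14.1 and 12.8 nt and then at 17.5 and 17.3 nt, and PPA2, the mitochondrial pyrophosphatase, at a mean of 19.4 nt on Day 3 and of 15.4 nt on Day 4 (−4.05 nt). The libraries of each day were apart in these 3 genes, but none passed the adjustment. Tails on ribosomal RNA were short on both days, at 13.4 and 13.3 nt and then 13.2 and 13.3 nt, whereas those on SUP16 measured 21.6 and 21.5 nt and then 22.1 and 22.8 nt. The share of reads with a tail, over 4689 genes assigned alike in both tables, was 38.9% and 38.8% on Day 3 and 38.2% and 37.6% on Day 4, a difference of −0.977 percentage points (exact permutation p = 0.333).

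**Figure D5:**
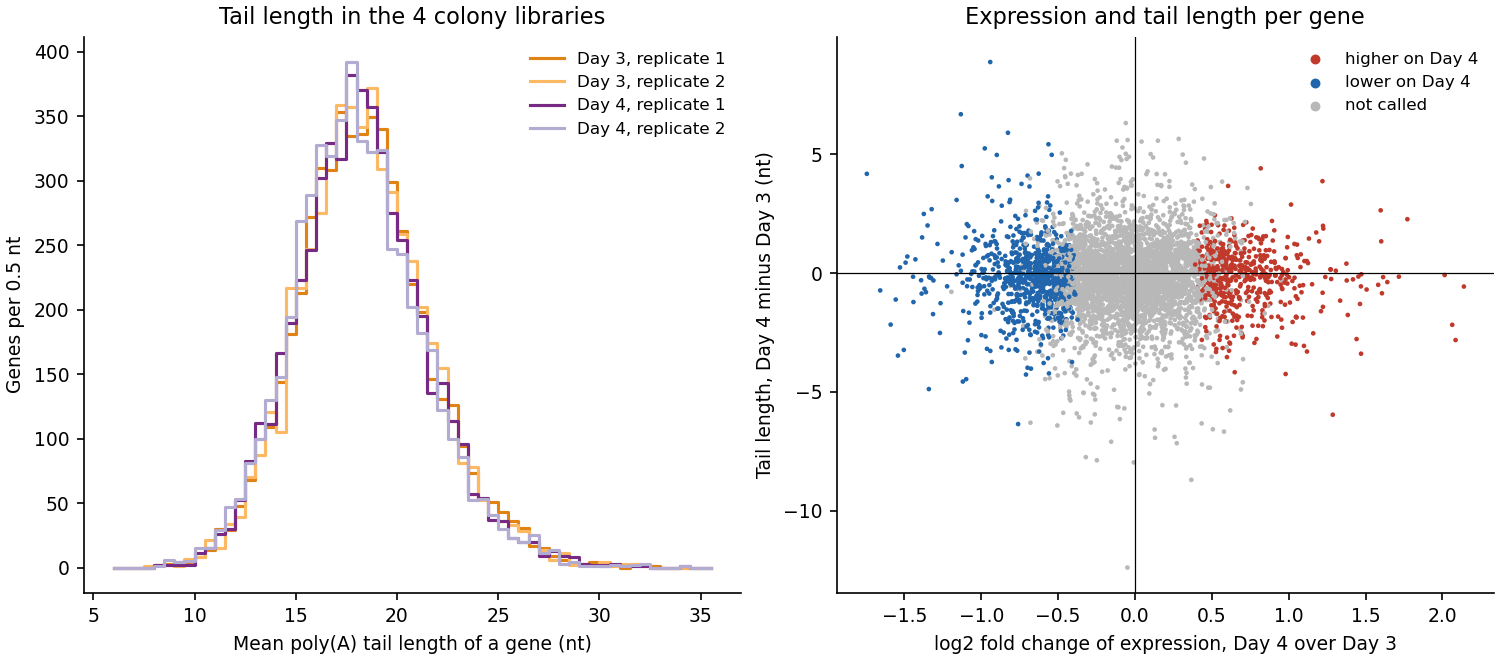
Left: number of genes per 0.5 nt of mean poly(A) tail length in the 4 colony libraries, whose medians are 18.24 and 18.26 nt on Day 3 and 18.11 and 17.89 nt on Day 4. Right: difference in tail length against log2 fold change of expression for 4795 genes with certain assignment, red where called higher and blue where called lower in expression, with a Spearman rho of 0.00434.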

How the data were processed

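PAT-seq libraries were made from total RNA (hot phenol, 1 microgram each) and sequenced in 75-base SOLiD reads, per the labels' protocols. Which aligner, genome build and rule for calling a read tailed the authors used is not given in the sources used here. Of 5813 entries shared with the R64 annotation, 5801 (99.8%) had identical positions. The authors deposited raw counts of reads and of tailed reads per gene and library, mean tail lengths in nt (checked as a score) and a gene table with the fraction of reads with a tail over all libraries, which was used only for coordinates and summed reads.

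Expression and tailed reads were tested in edgeR 4.0.16 (quasi-likelihood F test of Day 4 minus Day 3 with TMM scaling and filterByExpr, all 8 libraries in the fit with a mean for each group), and tail length in limma 3.58.1 (genes with 10 or more tailed reads per library, weights up to 100 reads, trend), under R 4.3.3. A call is a Benjamini-Hochberg adjusted p under 0.05 over all entries. CPM are counts per 1000000 scaled by TMM. DESeq2 1.42.0 was an alternative. Tests were checked on data simulated for Day 4 against Day 3: over 5866 entries edgeR called 83.8% of 2-fold and 100% of 4-fold changes, and 6.63% of its calls were entries simulated without change (2.56% for limma over 5388 genes). Tables were handled in pandas 2.3.3 and NumPy 2.4.6 under Python 3.11.15, exact tests ran in SciPy 1.17.1, and plots were drawn with matplotlib 3.10.9.

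Named genes are the 10 largest called rises and falls with at least 50 CPM on one day, up to 4 called list members with the smallest p and those moving against their list, all poly(A) factors, and per non-coding class the 4 entries with the most tailed reads and up to 5 called each way. The members and lists were chosen with earlier results of these data known. Gene length, the Puf3-type motif, the box motifs, the tRNA families, the identity of HXT6 and HXT7, the intronic snoRNAs with their hosts and the Ty elements were looked at after values had been seen.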

Additional observations from a re-analysis of the deposited data

How the results depend on the processing

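Call counts of expression and tailed reads stayed within 1.5 times of the reported ones under RLE scaling, total-count scaling, no filter on low counts, DESeq2 and, for expression, a 50 CPM minimum, the 4 libraries alone and tailed reads. The balance turned, with more entries higher than lower in expression, under total-count scaling (726 lower), the 50 CPM minimum (650 and 608) and the 4 libraries alone (1038 and 982), and in tailed reads under total-count scaling (638 and 630). Leaving out 1 library left a group with 1 library, assumed to vary like the others: 288 to 403 entries were then called higher and 320 to 595 lower in expression, and 273 to 418 higher and 222 to 471 lower in tailed reads, fewest without Day 4 replicate 2. Of 391 named results, 75 to 128 lost their call when 1 library was left out, and 0 turned direction. In tailed reads, 52 lost their call, and HAC1 (−0.01) and TIF4631 (−0.0041) reversed. Without rRNA entries the rise of the non-coding share was 0.408 percentage points in place of 1.17, and without 1 library it was 1.14 to 1.21. The median tail difference was −0.365 to −0.137 nt and the difference of the tailed share −1.28 to −0.675 percentage points without 1 library. Same-numbered libraries of the 2 days did not deviate together (r = −0.03). With the replicate number as a block, 656 entries were higher and 808 lower in expression, 573 and 644 in tailed reads, and 0 in tail length. With 2 libraries per day, limma called 5% of simulated tail changes of 2 nt and 71% of those of 4 nt.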

Other observations

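Entries of Ty retrotransposons, a class chosen after its values were seen, rose together. Of 48 tested in tailed reads, 39 rose and 0 fell by edgeR (median 0.78), 36 rose and 0 fell by DESeq2, 42 were higher and 0 lower at an unadjusted p under 0.05, and 20 to 26 rose when 1 library was left out. Their share of tailed reads was 2.45% and 2.17% on Day 3 and 3.92% and 4.10% on Day 4, and 0.963% to 1.42% in Log phase and on Day 2. The copies are nearly identical, so their reads cannot be assigned to single elements.

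Of 24 flocculin and seripauperin genes tested of 32 listed, 6 rose and 0 fell by edgeR (median 0.65), as by DESeq2, 8 were higher and 0 lower at an unadjusted p under 0.05, and 3 to 5 rose when 1 library was left out. FIG2, a cell wall adhesin of mating, stood at 10.7 and 11.1 CPM on Day 3 and at 27.4 and 25.9 CPM on Day 4 (1.29 ± 0.24), and FLO11, the flocculin of biofilms, at 19.0 and 15.7 CPM and then at 38.02 and 37.36 CPM (1.12 ± 0.24), with uncertain assignment. The days did not overlap in either gene. In these MATa colonies 2 of 6 alpha-cell genes rose, also without any 1 library. MF(ALPHA)1, the alpha-factor pheromone gene, stood at 87.8 and 80.0 CPM and then at 281 and 230 CPM (1.61 ± 0.18), and SAG1, alpha-agglutinin, at 29.5 and 32.4 CPM and then at 72.0 and 72.7 CPM (1.22 ± 0.18). STE3, MF(ALPHA)2 and the silent-locus genes HMLALPHA1 and HMLALPHA2 were not called. Of 22 genes of MATa cells and mating 3 rose and 3 fell (13.6% each, against 11.8% and 14.6% of all entries, median 0.00). Of 26 meiosis and sporulation genes 4 rose (15.4%, near the 11.8% of all entries) and 1 fell (median 0.22). IME1, the inducer of meiosis, stood at 21.6 and 24.1 CPM and then at 61.6 and 64.9 CPM (1.47 ± 0.19), and RIM4, an RNA-binding protein of meiosis, at 27.4 and 22.6 CPM and then at 55.6 and 63.3 CPM (1.25 ± 0.21). IME2, NDT80, SPS1, SPS4, DIT1 and SMK1, which act after IME1, were not called.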
